A study of Capsicum annuum and Solanum lycopersicum with 125 samples.

Results

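The self-grafted tomato scion at 14 days after grafting (DAG) was set against ungrafted tomato stem of the same age. The libraries were chosen by their labels: 4 self-grafted scion libraries and 5 ungrafted stem libraries, 9 of the 125 in the series. The study grafted tomato (Solanum lycopersicum) and pepper onto themselves and onto each other and sequenced the junction tissue at 7, 14 and 21 DAG. The scions were M82 tomato shoots joined to M82 stocks as 14-day-old seedlings, and healed in the dark for 3 days. The ungrafted stems were M82 plants that were not cut and went through the same recovery. Scion and stock were separated at the junction and a piece of 0.5 cm was collected, so each library mixes the wound-side tissue with the stem next to it. No transgene or treatment other than the graft separates the groups. The labels speak of biological replicates and do not say whether plants were pooled. The comparison asks what remains changed in the upper part of a compatible graft when it is set against a stem that was never cut.

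A graft heals in steps that are known from many plants. Cells at the cut divide and form callus, the callus of scion and stock adheres, and new xylem and phloem are then laid down across the junction. In tomato a graft onto itself is compatible and regains vascular continuity. The wound also sets off ethylene, jasmonate and auxin responses, and both sides differ at first because the cut stops the downward flow of auxin and sugars from the scion.

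Expression was read from the 3′ ends of polyadenylated transcripts, so counts stand for reads near a transcript's end and depth does not scale with gene length. The counts came through StringTie, and 1 count need not be exactly 1 read. Levels are given as CPM (a gene's counts scaled to a common library total) after TMM scaling, edgeR's correction for library composition. Total counts ran from 1724068 to 2505040 in the scions and from 1389700 to 2506444 in the ungrafted stems. Of 34688 genes in the table, 12789 passed the filter on low counts and were tested. Genes counted as called had an adjusted p under 0.05 together with a log2 fold change beyond 1.5, higher or lower. The tables used here do not pair tomato identifiers with gene names, so 6 genes whose identifiers stand in the study's text are named, with 2 further identifiers that rose and 2 that fell. Marker genes of stem tissues could not be matched for the same reason, and the tissue labels were not checked against them.

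Ungrafted libraries 4 and 5 stood apart from the rest. They had 13064 and 12488 genes with a count, against 15504 to 16079 in the other ungrafted libraries, and 14742 to 16777 in the scions. Of the tested genes, 1890 and 2199 were at 0 in these libraries, against 375 to 538 in the other ungrafted libraries. Scion 1 was the least complete scion, with 892 tested genes at 0 against 183 to 401 in the other scions. Some of these zeros were in well-expressed genes: 298 and 386 genes at 0 in ungrafted 4 and 5 had a median above 20 CPM in the other ungrafted libraries, against 15 to 28 such genes in ungrafted 1 to 3. The counts of calls against the ungrafted stems of 14 DAG, and the fold changes of the genes named below, are also given without them.

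**Figure D1:**
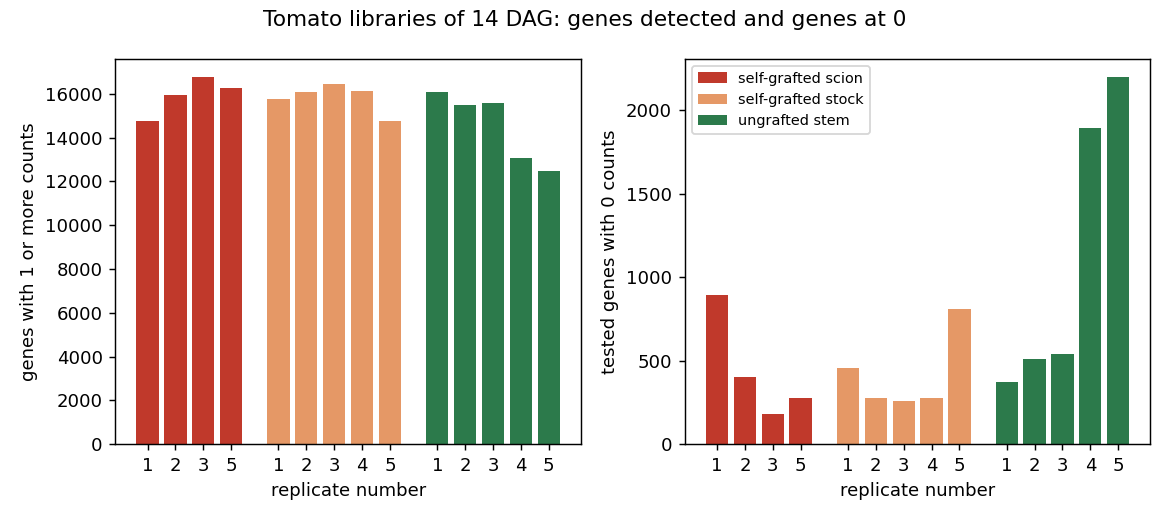
Genes with 1 or more counts (left) and tested genes with 0 counts (right) in each tomato library of 14 DAG, by group and replicate number. Ungrafted 4 and 5 have the most tested genes at 0, 1890 and 2199, and scion 1 has 892.

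At 14 DAG 350 genes were higher and 100 were lower in the scion than in the ungrafted stem (edgeR quasi-likelihood test, Benjamini-Hochberg adjusted), which is 2.74% and 0.782% of the genes tested. With no threshold on the fold change, 919 genes were higher and 806 lower, so 77.8% of the calls but 53.3% of the genes past the adjusted p lay on the higher side. Over all genes tested, the log2 fold change had a median of 0.08. Of the genes called higher, 235 exceeded a log2 fold change of 2 and 142 exceeded 3. Of the genes called lower, 51 were below -2 and 17 below -3. The median log2 fold change was 2.47 among genes called higher, or 2.32 with genes at 0 in the whole ungrafted group held at a lower bound of 3 counts per library. It was -2.02 among genes called lower.

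The 2 sets differed in level. Genes called higher had a median of 23.8 CPM in the scion and 3.50 CPM in the ungrafted stem, against 25.9 CPM in the scion and 23.7 CPM in the ungrafted stem over all genes tested. They were thus near the median of all genes in the scion and below it in the ungrafted stem, and 54 of the 350 averaged 100 CPM or more in the scion. Genes called lower had a median of 17.0 CPM in the scion and 71.5 CPM in the ungrafted stem, and 42 of the 100 averaged 100 CPM or more in the ungrafted stem. As a share of all counts, the 350 genes took 1.64% to 2.59% in the scions and 0.398% to 0.58% in the ungrafted stems. The 100 genes took 0.956% to 1.17% in the scions and 3.15% to 4.82% in the ungrafted stems. These shares describe the genes as called and carry no test.

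**Figure D2:**
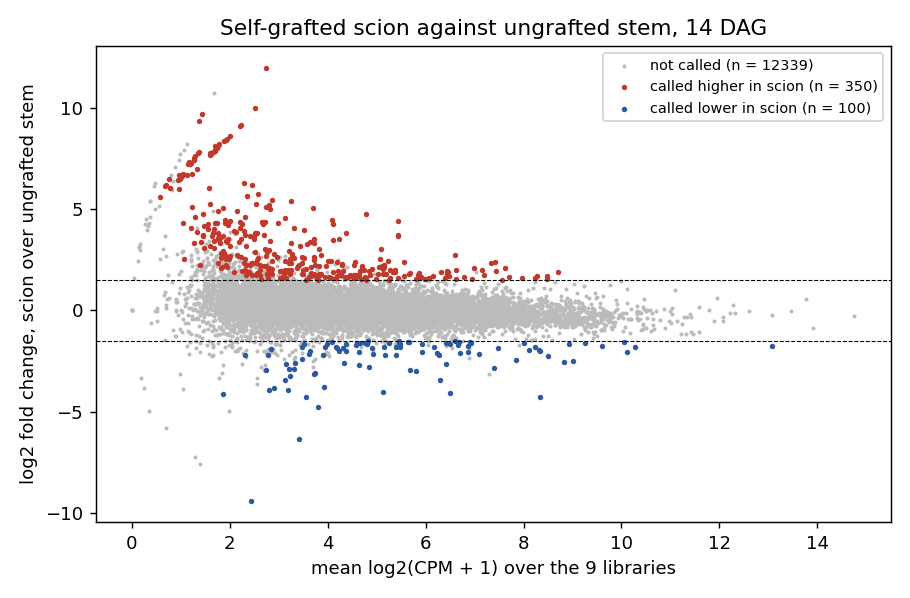
Log2 fold change of the scion over the ungrafted stem at 14 DAG against the mean log2(CPM + 1) over the 9 libraries, 1 point per gene tested, with dashed lines at the fold threshold. The 350 genes called higher lie above the upper line, and the band of points rising steeply at the upper left holds genes with no count in the ungrafted stem, whose fitted fold depends on the prior count.

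The values of the 4 scions lay entirely above the 5 ungrafted stems in 291 of the 350 genes called higher, and entirely below them in 89 of the 100 called lower. Over all genes tested, the groups did not overlap with the scion higher in 8.71% and with the scion lower in 6.6%. The called genes were chosen by a test on these same libraries, so their larger share is largely built in and is a description only. Without ungrafted 4 and 5, the scions lay above the ungrafted stems in 299 of the 350 genes and below them in 92 of the 100. Leaving out libraries can only keep or raise the counts of 291 and 89, so this rise is no check on the separation. The 350 and 100 genes were also called with ungrafted 4 and 5 in the model. The matching share over all genes tested is not given.

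A part of the higher genes had few or no counts in the ungrafted stem. Of the 350, 133 had a count in all 5 ungrafted libraries and 45 had none in any. Over all genes tested, 78 (0.61%) had none in any. Such genes passed the filter only through counts in grafted libraries, so their place among the higher genes is partly built in. Ungrafted 1, 2 and 3 had 78, 91 and 121 of the 350 genes at 0, and ungrafted 4 and 5 had 170 and 171, whereas the scions had 2 to 24. Of all genes tested, 14.8% and 17.2% were at 0 in ungrafted 4 and 5, 2.93% to 4.21% in ungrafted 1 to 3, and 1.43% to 6.97% in the scions. Of the 350, 23 were at 0 in exactly ungrafted 4 and 5 and present in the others. Genes at 0 in these 2 and in a further ungrafted library are not in that count. The 45 genes averaged 2.58 to 226 CPM in the scion (median 11.2), which is at least 1.52-fold to at least 133-fold higher than a floor of 3 counts in each ungrafted library. Of them 22 had counts in all 4 scions and 21 had counts in all 5 self-grafted stocks. In the ungrafted stems of the other time points, 19 of the 45 had counts in some library of 7 DAG and 29 in some library of 21 DAG. Thus 9 genes had no count in any of the 13 ungrafted libraries of the time course.

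Leaving out ungrafted 4 and 5 together gave 280 genes higher and 94 lower, of which 239 and 67 were among the 350 and 100. Leaving out scion 1 as well gave 324 and 106, with 265 and 61 shared. When the model held only the 9 libraries, without the stocks and heterografted scions of the same day, 193 genes were higher and 106 lower, with 189 and 86 shared. The cause of the lower number was not tested.

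Of the 5 named genes that were tested, 1 was called, where 2.74% of all genes tested were called higher and 0.782% lower. The study named these genes among those upregulated in incompatible grafts, which are not compared here. The called gene was SlERF114 (Solyc03g118190), an ethylene response factor whose Arabidopsis counterpart takes part in graft junction formation. It had 7.15, 15.8, 18.2 and 10.4 CPM in scions 1, 2, 3 and 5, against 0, 0.9002, 1.56, 0 and 0 CPM in ungrafted stems 1 to 5. Every scion was above every ungrafted stem, and the ungrafted group held 5 counts in all against 112 in the scions. The log2 fold change was 4.47 ± 0.59 (SE, edgeR quasi-likelihood adjusted p = 0.000198), higher in 4 of 4 scions. The ratio of the pooled rates was 25.2, with a 95% counting interval of 10.5 to 79.1. Over the alternatives the adjusted p ran from 4.07e-08 to 0.0147, and without ungrafted 4 and 5 the log2 fold change was 3.98. The study describes upregulation of SlERF114 as specific to incompatible grafts, whereas the call here is for a self-graft against ungrafted stem.

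The plant homologs of BRCA1 and BARD1 act together in repair of DNA breaks by homologous recombination. The study reports their upregulation as unique to incompatible grafts. BARD1 (Solyc05g016230) had 13.1, 17.9, 21.2 and 18.01 CPM in the scions, against 11.3, 12.2, 8.32, 0 and 0 CPM in the ungrafted stems. The lowest scion was above the highest ungrafted stem, yet the difference did not pass the test (log2 fold change 1.38 ± 0.61 SE, edgeR adjusted p = 0.157, 0.051 to 0.393 over the alternatives). The zeros were in ungrafted 4 and 5, and without these libraries the log2 fold change was 0.71 (edgeR adjusted p = 0.0832).

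The BRCA1 homolog Solyc12g041980 showed the same zeros. It had 13.1, 8.94, 12.5 and 14.7 CPM in the scions, against 10.9, 7.65, 5.72, 0 and 0 CPM in the ungrafted stems, and the groups overlapped. Its log2 fold change was 1.26 ± 0.66 (SE, edgeR adjusted p = 0.239), and 0.58 without ungrafted 4 and 5 (edgeR adjusted p = 0.277). The other homolog, Solyc09g066080, was too low to be tested, with 12, 13, 0 and 14 counts in the scions and 6, 0, 0, 0 and 0 counts in the ungrafted stems.

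Neither of the named genes tied to defence passed the test. WRKY70 (Solyc03g095770), the putative ortholog of an Arabidopsis factor that acts between the salicylic acid and jasmonic acid pathways, had 5.36, 9.47, 8.70 and 4.27 CPM in the scions. The ungrafted stems had 6.06, 5.40, 14.6, 16.6 and 4.59 CPM. The groups overlapped (log2 fold change -0.42 ± 0.67 SE, edgeR adjusted p = 0.755, and -0.29 without ungrafted 4 and 5). HSR4 (Solyc02g062550), which the study places among cell death genes, had 25.6, 10.5, 12.9 and 20.9 CPM in the scions, against 29.5, 9.002, 58.8, 11.1 and 17.6 CPM in the ungrafted stems. Its log2 fold change was -0.54 ± 0.67 (SE, edgeR adjusted p = 0.668), and its sign turned without ungrafted 3 (0.04). It was -0.90 without ungrafted 4 and 5.

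Of all genes called, 253 higher and 87 lower had groups that did not overlap and a mean of 20 counts or more in the higher group. The matching share over all genes tested is not given, and these counts only describe the pool from which the next genes were taken. The pair without a name that had the largest fitted fold change on each side is described. Solyc03g025670 had 22.6, 103.6, 45.4 and 56.4 CPM in the scions and no count in any of the 5 ungrafted stems. It was at least 33.6-fold higher in the scion than a floor of 3 counts per ungrafted library (edgeR adjusted p = 0.00066). The scions differed among themselves by more than 4 times. Solyc01g095750 had 23.8, 37.4, 43.1 and 24.2 CPM in the scions and again no count in the ungrafted stems, at least 18.9-fold higher (edgeR adjusted p = 4.54e-06). Without ungrafted 4 and 5 both remained called, Solyc03g025670 with an adjusted p of 0.00357 and Solyc01g095750 with 2.59e-05 (edgeR). Both were at 0 in all 5 ungrafted stems, so this removal left the ungrafted level at 0 and is no check on the difference. They were picked by fitted fold change and passed the filter only through counts in grafted libraries, so their p-values are partly built in.

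Among the lower genes, Solyc03g097870 had 0, 0, 1.89 and 0.948 CPM in the scions, against 42.4, 205.7, 16.1, 57.3 and 33.7 CPM in the ungrafted stems. Ungrafted 2 was far above the others, and the groups did not overlap (log2 fold change -6.36 ± 1.13 SE, edgeR adjusted p = 0.00164). Solyc12g009650 had 0, 0, 4.92 and 4.74 CPM in the scions and 143.5, 45.5, 108.7, 19.3 and 37.5 CPM in the ungrafted stems. Its groups did not overlap either (log2 fold change -4.74 ± 0.97 SE, edgeR adjusted p = 0.00439). Without ungrafted 4 and 5 the log2 fold change was -6.68 for Solyc03g097870 and -5.21 for Solyc12g009650, and both were called (edgeR adjusted p = 0.00329 for each). In bulk tissue, fewer cells of a type and less RNA per cell cannot be told apart for these genes or the others.

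**Figure D3:**
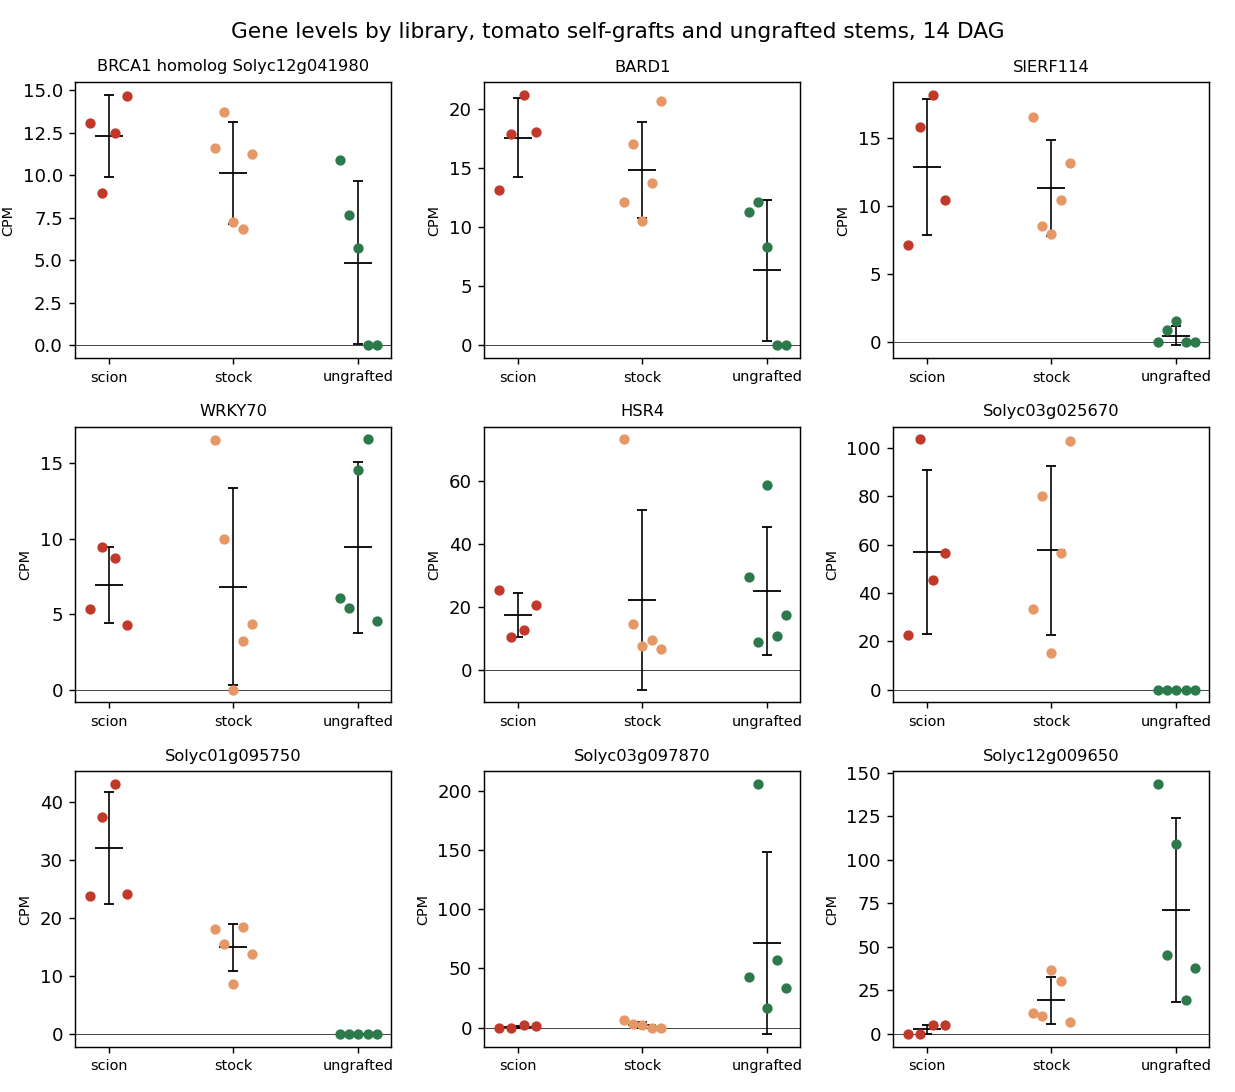
CPM of the 5 tested named genes and 4 further identifiers in the self-grafted scions, self-grafted stocks and ungrafted stems of 14 DAG. Points are libraries, and bars are the mean ± SD (n = 4, 5 and 5). SlERF114, Solyc03g025670 and Solyc01g095750 are at or near 0 in the ungrafted stems, and the zeros of BARD1 and Solyc12g041980 are in ungrafted 4 and 5.

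The scion was then compared directly with the stock, the lower part of a graft of the same kind. No gene was called in either direction (0% of 12789 genes, edgeR), and 494 genes (3.86%) had an unadjusted p under 0.05. DESeq2 on the same libraries called 1 gene higher and 4 lower in the scion. SlERF114 had 7.15 to 18.2 CPM in the scions and 7.96 to 16.6 CPM in the stocks, a log2 difference of 0.21 ± 0.42 (SE). Solyc03g025670 had 22.6 to 103.6 CPM in the scions and 15.2 to 102.8 CPM in the stocks, and these ranges overlapped almost fully. Solyc01g095750 had 23.8 to 43.1 CPM in the scions and 8.68 to 18.6 CPM in the stocks, a log2 difference of 1.10 ± 0.27 (SE). These ranges did not overlap, but no adjusted p in this comparison was below 1.

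Against the same ungrafted stems, the stock had 177 genes higher and 40 lower (1.38% and 0.313% of the genes tested). The scion and stock comparisons share the ungrafted libraries, so their lists are not independent. Both lists held 166 higher genes, which is 47.4% of the scion list and 93.8% of the stock list, and 26 lower genes, which is 26% of the scion list and 65% of the stock list. Without ungrafted 4 and 5 the stock had 108 genes higher and 22 lower. The shared genes were then 107 higher, 38.2% of the scion list and 99.1% of the stock list, and 16 lower, 17% of the scion list and 72.7% of the stock list. Over the 350 genes, the median log2(CPM + 1) per library was 4.28 to 4.84 in the scions, 3.77 to 4.40 in the stocks and 0.82 to 2.64 in the ungrafted stems. Over the 100 genes it was 3.90 to 4.39 in the scions, 4.24 to 5.31 in the stocks and 5.86 to 6.51 in the ungrafted stems. The genes were chosen for the scion, so a stock value nearer to the ungrafted stem is given as a description only.

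The difference at 14 DAG was set against that at 7 and 21 DAG, whose libraries are separate, in 1 model of 25 libraries and 11686 genes. In this model the scion had 192 genes higher and 31 lower at 7 DAG (1.64% and 0.265%), 138 and 88 at 14 DAG (1.18% and 0.753%), and 32 and 21 at 21 DAG (0.274% and 0.18%). Without ungrafted 4 and 5, the counts at 14 DAG were 66 higher and 73 lower. Of the 350 genes called higher at 14 DAG, 269 were tested here. Of these, 53 were called higher at 7 DAG (19.7%), 135 at 14 DAG itself (50.2%) and 21 at 21 DAG (7.81%). Of the 100 called lower, 99 were tested, and 5 were called lower at 7 DAG (5.05%), 74 at 14 DAG itself (74.7%) and 6 at 21 DAG (6.06%). Another 2 of the 99 were called higher in the scion at 7 DAG.

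The levels of these genes over time had a different course in the 2 sets. Over the 269 genes, the median log2(CPM + 1) per library in the scions was 2.96 to 4.59 at 7 DAG, 4.68 to 5.34 at 14 DAG and 3.92 to 4.62 at 21 DAG. In the ungrafted stems it was 0.94 to 3.41 at 7 DAG, 2.24 to 3.14 at 14 DAG and 2.72 to 3.96 at 21 DAG. Of the 269 genes, 86 were at 0 in scion 3 of 7 DAG, against 17 to 36 in the other scions of that day. Ungrafted 1, 2, 3 and 5 of 7 DAG had 49, 117, 132 and 109 of them at 0. Completeness over all genes is not given for the libraries of 7 and 21 DAG. The part of missing counts in the levels, calls and contrasts of those days was not tested. Over the 99 genes, the scions had 5.60 to 6.05 at 7 DAG, 3.88 to 4.34 at 14 DAG and 3.71 to 4.45 at 21 DAG. The ungrafted stems had 6.20 to 6.52, 5.82 to 6.48 and 4.11 to 4.34 at the same times. In the lower set, the scions of 14 DAG were near the level of both groups at 21 DAG, and the ungrafted stems of 14 DAG were near their level of 7 DAG. The sets were chosen on the levels of both groups at 14 DAG, which by itself makes the gap widest there. A difference in timing between scion and ungrafted stem was not tested.

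**Figure D4:**
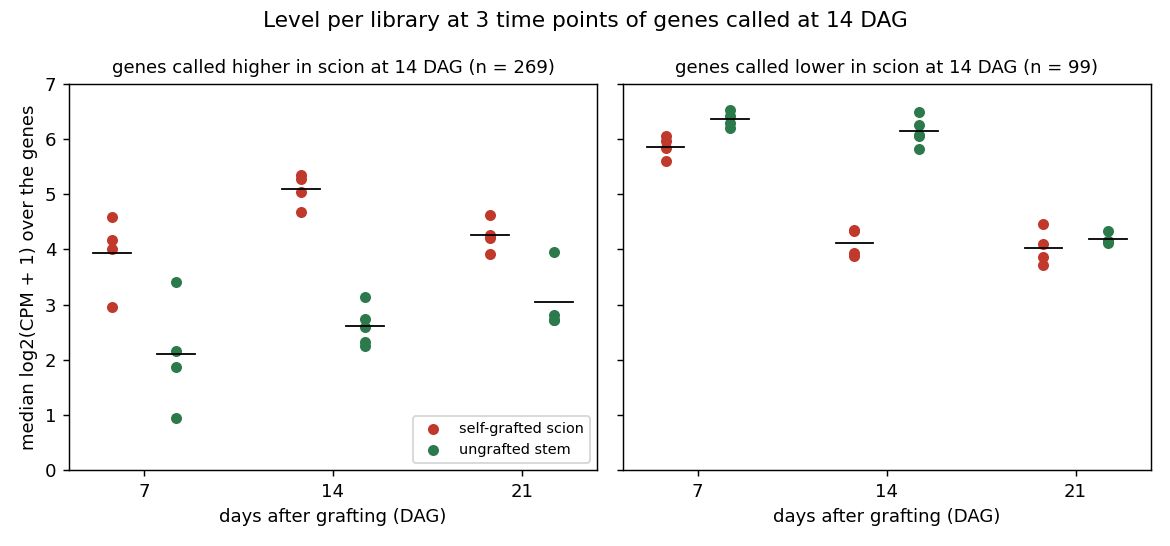
Median log2(CPM + 1) per library of the genes called higher (left, 269 genes) and lower (right, 99 genes) in the scion at 14 DAG, at 7, 14 and 21 DAG. Points are libraries and lines are group means. In the lower set the scions are at 3.88 to 4.34 at 14 DAG, and the ungrafted stems reach 4.11 to 4.34 at 21 DAG.

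The test of the change itself found few genes. The graft effect was higher at 14 than at 7 DAG in 24 genes and lower in 65 (0.205% and 0.556%). Of the 65, 43 were called higher in the scion at 7 DAG and 17 were called lower at 14 DAG. Over all genes in this model, 1.64% were called higher at 7 DAG and 0.753% lower at 14 DAG. The calls and the contrast use the same values, so this overlap is largely built in and is a description only. Leaving out single libraries gave 12 to 32 genes higher and 34 to 99 lower. The number higher fell to 14, 15 and 12 without scions 2, 3 and 5 of 14 DAG. The number lower was 34 and 35 without scions 2 and 5 of 14 DAG, 43 without scion 5 of 7 DAG, and 99 without ungrafted 1 of 7 DAG. Without scion 3 of 7 DAG, 22 genes were higher and 85 lower. With only the libraries of 7 and 14 DAG in the model, 65 genes were higher and 72 lower.

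Against 21 DAG the graft effect was higher in 3 genes and lower in 12 (0.0257% and 0.103%). Of the 12, 7 were called lower at 14 DAG (0.753% of all genes in this model), an overlap that is likewise largely built in. These counts are small and moved with single libraries, from 0 to 10 higher and from 6 to 27 lower. The number higher was 0 without scion 2 or 5 of 14 DAG, and 1 without scion 1 or ungrafted 4 of 14 DAG, scion 2 or 5 of 21 DAG, or ungrafted 1 of 21 DAG. It was 9 without ungrafted 4, 5 without ungrafted 5 and 10 without scion 4 of 21 DAG. The number lower was 6 without scion 2 or 3 of 14 DAG, 7 without scion 1, scion 5 or ungrafted 1 of 14 DAG or scion 5 of 21 DAG, and 27 without ungrafted 4 of 21 DAG. Without ungrafted 4 and 5 of 14 DAG, the counts were 16 higher and 47 lower against 7 DAG, and 2 and 9 against 21 DAG.

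SlERF114 was higher in the scion at each time. It had 12.6 to 19.8 CPM in the scions and 0 to 3.40 CPM in the ungrafted stems at 7 DAG, and 14.8 to 18.5 CPM in the scions and 0 to 3.49 CPM in the ungrafted stems at 21 DAG. The groups did not overlap at either time. The log2 fold change was 3.99 ± 0.97 at 7 DAG (SE, edgeR adjusted p = 0.0223) and 3.21 ± 0.91 at 21 DAG (SE, edgeR adjusted p = 0.0886), and the value of 21 DAG did not pass the test. The change in effect between 14 and 7 DAG was 0.46 (edgeR adjusted p = 0.985) and that between 14 and 21 DAG was 1.24 (edgeR adjusted p = 1).

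The unnamed genes each had their own course. Solyc01g095750 was nearly silent in the scions at 7 DAG, with counts in scion 1 alone (4.18 CPM), and had 9.41 to 28.6 CPM in all 4 scions at 21 DAG. Its ungrafted stems held no count at 7 DAG and 1.02 CPM in 1 library at 21 DAG. Solyc03g025670 varied widely outside 14 DAG. At 7 DAG it had 138.8, 295.4, 0 and 278 CPM in scions 1, 2, 3 and 5. The ungrafted stems of 7 DAG had 0 to 18.7 CPM. Its only scion at 0 on that day was scion 3, which had the most zeros of these scions among the 269 genes. At 21 DAG Solyc03g025670 had 0 to 91.1 CPM in the scions and, in ungrafted 2 alone, 290.2 CPM in the ungrafted stems. Solyc12g009650 had 14.6 to 35.3 CPM in the scions and 89.6 to 162.4 CPM in the ungrafted stems at 7 DAG. It was at 0 in all 4 scions at 21 DAG, with 0 to 11.4 CPM in the ungrafted stems. Solyc03g097870 had 0 to 7.40 CPM in the scions and 6.98 to 22.2 CPM in the ungrafted stems at 7 DAG, and 10.6 to 25.8 CPM in the scions and 10.5 to 58.0 CPM in the ungrafted stems at 21 DAG.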

How the data were processed

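Reads were cleaned by the authors (Trimmomatic, Prinseq), mapped to the ITAG4 tomato models (STAR 2.7.10b) and turned into counts per gene (StringTie). Per the labels, FastQC 0.12.1 and SAMtools 1.18 were also used. The deposited values are raw counts per gene, without normalization. The study describes removing outliers with low read counts. The heterografted tomato stocks of 14 DAG hold few counts and are still among the deposited values. The analysis used edgeR 4.0.16 under R 4.3.3 (TMM, quasi-likelihood F test, Benjamini-Hochberg adjustment). The model held the 18 tomato libraries of 14 DAG other than heterografted stocks, which were left out of filter, scaling and dispersion. Genes with a mean under 10 counts, or at 0 in 75% or more of the libraries, were left out. Standard errors were taken from each fold change and its F statistic and are approximate. P-values measure the spread between libraries. Intervals and floors take each count as 1 read and cover counting error only. The test was tested on simulated data.

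Alternatives were DESeq2 1.42.0 (size factors or Wald test), no filter, filterByExpr, the 9 libraries alone, heterografted stocks included, the replicate number as a block, thinned counts, no fold threshold, and each library left out. Leaving out ungrafted 4 and 5, with or without scion 1 (also for the stock and the time course), and DESeq2 for scion against stock were added after seeing the data. The rule was to name genes by fold change among named calls, by gene lists, by the study's text and by the other comparisons. Without tomato gene names, only the genes of the text could be named, and 2 identifiers on each side were taken by fitted fold change. Samples, lists and tests were chosen with earlier results of these data known. The pepper table was not used here.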

Additional observations from a re-analysis of the deposited data

Results flagged for a closer look

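Of 46 groups of 4 or 5 libraries examined, 5 held a value far from the others. The cutoff gives about 1 in 20 by chance for independent, normally distributed values. The groups here share libraries and include skewed levels and genes chosen on these libraries, so that rate need not hold. Scion 1 had 109 genes at 0 that were above 20 CPM in the median of the other scions (others 19 to 29), and stock 5 had 82 (others 18 to 31). Ungrafted 1 gave 0.58% of its counts to the genes called higher, against 0.398% to 0.437% in the other ungrafted stems. Solyc03g097870 had 205.7 CPM in ungrafted 2, against 16.1 to 57.3 CPM in the others. HSR4 had 73.4 CPM in stock 1, against 6.89 to 14.7 CPM in the other stocks. Ungrafted 4 and 5 are not among these values, since they stand apart together.

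The graft effect differed between time points, by the test of the difference itself, in 24 genes higher and 65 lower at 14 than at 7 DAG, and in 3 higher and 12 lower at 14 than at 21 DAG. The part of single libraries in these counts is given with them above, and its cause was not tested.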

How the results depend on the processing

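The counts of 350 higher and 100 lower stayed within 1.5 times under DESeq2 size factors, the DESeq2 Wald test (402 and 131), no filter, filterByExpr, the heterografted stocks included, thinned counts (291 and 110), and both removals of ungrafted 4 and 5. They moved to 193 higher with only the 9 libraries, where the share of higher calls was 64.5%, and to 919 and 806 with no fold threshold. Leaving out single libraries gave 256 to 366 higher and 72 to 115 lower. The deviations of same-numbered scions and ungrafted stems correlated at -0.13, 0.07, 0.07 and -0.11, and no pairing was taken from the numbers. Those of same-numbered scions and stocks correlated at 0.23, 0.02, 0.22 and 0.05. The sources do not say whether a number marks the same grafted plant, so pairing of scion with stock was not settled. With the number as a replicate block, 286 genes were higher and 96 lower, and scion against stock stayed at 0 and 0.

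Scion against stock was 0 and 0 under size factors, the 9 libraries alone and every library left out, and 1 and 4 under DESeq2. Against 7 DAG, single libraries gave 12 to 32 higher and 34 to 99 lower, and the libraries of both days alone gave 65 higher. Against 21 DAG they gave 0 to 10 and 6 to 27, and size factors gave 6 higher. HSR4 ran from -0.80 to 0.037 on the log2 scale with single libraries left out, the highest without ungrafted 3. No other named gene changed sign or call. The gene lists could not be run without tomato gene descriptions. Counts of 1 to 3 per library limit what can be said of the ungrafted level of the weakly expressed genes.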
